A study of Mus musculus with 16 samples.

Results

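The D-type cyclins Ccnd1, Ccnd2 and Ccnd3 and the cyclin-dependent kinase (CDK) inhibitors Cdkn1a, Cdkn1b, Cdkn1c, Cdkn2a and Cdkn2b, 8 of the 32285 genes counted, were followed through bone marrow stromal cell (BMSC) cultures of 4 genotypes. They were taken by name as the family that opens or holds the G1 phase, with earlier results of these data known. Marrow cells of 12-week-old mice were cultured for 21 days with 10 mM beta-glycerophosphate and ascorbic acid, a medium in which stromal cells turn into bone-forming cells, and were measured by droplet single-cell RNA-Seq. By the study's breeding scheme all 4 genotypes were Fgf23 fl/fl, with loxP sites around the first exon of Fgf23. WT mice were Dmp1+/+ without Cre, and Fgf23cKO mice were Dmp1+/+ and carried Cre under the Dmp1 promoter, which is active in mature osteoblasts and osteocytes. Dmp1KO mice were Dmp1-/- in all cells without Cre, and Dmp1KO/Fgf23cKO mice combined the global Dmp1 knockout with the Cre. The comparisons ask what loss of DMP1, a matrix protein of osteocytes, and of FGF23, the phosphate-lowering hormone of bone, does to the cells of such cultures. Cells of 3 cultures per genotype were tagged, pooled and run in 1 droplet reaction, and an effect of a genotype cannot be told apart from one of its reaction. The replicates are these tagged cultures (3 WT, 3 Fgf23cKO, 2 Dmp1KO and 3 Dmp1KO/Fgf23cKO; the first Dmp1KO culture was not analysed here), and p-values measure only the spread between them.

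D-type cyclins are the part of the cell cycle engine that answers to growth signals: they are made when a mitogen or an attached matrix signals to the cell, they bind CDK4 and CDK6, and the complex phosphorylates the retinoblastoma protein so that E2F factors can switch on the genes of S phase. The Ink4 inhibitors p16Ink4a (from Cdkn2a) and p15Ink4b (from Cdkn2b) bind CDK4 and CDK6 and keep the cyclins off, while p21 (Cdkn1a), p27 (Cdkn1b) and p57 (Cdkn1c) bind whole cyclin and CDK complexes. In cultured mesenchymal cells Cdkn2a is known to accumulate with time in culture, p21 is a classical target of p53, p15Ink4b is induced by TGF-beta, and macrophages divide in response to CSF1, which induces Ccnd1.

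Cdkn2a encodes a pair of unrelated proteins, and the deposited counts cannot tell them apart. The gene lies on the minus strand at chr4:89274471-89294653 (GRCm38), beside Cdkn2b on the same strand at chr4:89306299-89311039. Transcript Cdkn2a-201 starts p16Ink4a and transcript Cdkn2a-202 starts p19Arf, an activator of p53, and their first exons lie 12461 bases apart. The first coding bases of each are shown because they lie in the part that differs, with the start codon in capitals, at chr4:89282082-89282111 and chr4:89294494-89294523.
Cdkn2a-201 (p16Ink4a): ATGgagtccgctgcagacagactggccagg
Cdkn2a-202 (p19Arf): ATGggtcgcaggttcttggtcactgtgagg
The 852 and 895 exonic bases of these transcripts share 575, the last exon at chr4:89274541-89274774 among them, and of 317 shared coding bases 0 are read in the same frame. Since the libraries were made from the 3′ end, a Cdkn2a UMI (unique molecular identifier, 1 captured RNA molecule) stands for p16Ink4a and p19Arf together. The other members lie at chr7:144929931-144939925 (Ccnd1, minus strand), chr6:127125162-127152193 (Ccnd2, minus), chr17:47505051-47599691 (Ccnd3, plus), chr17:29090976-29100727 (Cdkn1a, plus), chr6:134920401-134925513 (Cdkn1b, plus) and chr7:143458339-143461050 (Cdkn1c, minus). All but Cdkn1b, Cdkn2a and Cdkn2b overlap an annotated gene on the other strand. Among the RefSeq promoter windows (GRCm38.p6) of 5 members, the p53 response element was found once, in 1 of the 2 Cdkn1a windows, on the plus strand at chr17:29090928-29090947, and is shown in capitals since p21 is the member that p53 controls.
Cdkn1a promoter: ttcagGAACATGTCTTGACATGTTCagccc
The search, on both strands with at most 1 mismatch over its 20 bases, found the element in 29 of 32851 windows (0.0883%), and a match is a description of letters, not of binding.

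Clustering of 17793 cells, with the 8 members kept out of the clustering genes, gave 20 clusters. Tagged cultures held 470 to 2825 cells and 9518928 to 72482185 UMIs, and the median UMIs per cell were 7137 to 7275.5 in WT, 29752.5 to 34988 in Fgf23cKO, 20016.5 to 22186 in Dmp1KO and 32378 to 33881 in Dmp1KO/Fgf23cKO. Most cells were macrophage-like (6825 cells) or other noncycling myeloid cells (4826 cells), and 1216 cells in an S-phase and a G2 and mitotic cluster were cycling-like, also with macrophage markers. Stromal cells were contractile (725 cells with a median of 2688 UMIs, 0.228 of that of their samples, led by Grem1, Mgp, Tagln, Tpm2 and Cald1), fibroblastic (423 cells, Pappa, Timp3 and Col3a1) or osteoblast/osteocyte-like (536 cells, Ibsp, Bglap, Dmp1 and Mepe), 292 cells were osteoclast-like, and 2950 cells in 5 clusters stayed unnamed. In osteoblast/osteocyte-like cells, Dmp1 was at 726 to 1275 UMIs per 1000000 UMIs of the class (CPM) in WT, 506 to 1001 in Fgf23cKO, 0 and 10.5 in Dmp1KO and 15.3 to 38.1 in Dmp1KO/Fgf23cKO, which matches the labels. Fgf23 had 1 UMI in these cells, which checks nothing, and a 3′ count would not see a lost first exon. Of all barcodes, 35 occurred in more than 1 sample and 0 within a genotype.

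Cdkn2a and Ccnd2 were genes of the stromal cells. Since the classes were formed from the same cells, the differences between classes are a description, with no test. The median of Cdkn2a over the cultures was 2003 CPM in contractile, 979.9 in fibroblastic and 314 in osteoblast/osteocyte-like cells, against 7.21 in macrophage-like, 15.4 in cycling-like and 12.3 in osteoclast-like cells. Ccnd2 had the same order in the stromal classes, with medians of 2732, 984 and 824 CPM in the 3 stromal classes and 24.2, 15.4 and 8.76 in the myeloid ones. In every culture with a sum of at least 10 cells, both genes were higher in each stromal class than in macrophage-like and cycling-like cells of that culture, and the values of stromal and myeloid cultures did not overlap. Both were among the leading genes of the contractile cluster.

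Ccnd1 was found in all classes and was highest in contractile cells, at a median of 2503 CPM, above 463 in fibroblastic, 473 in osteoblast/osteocyte-like, 153 in macrophage-like, 186 in cycling-like and 169 in osteoclast-like cells. Cdkn2b had another order. It was highest in fibroblastic cells, at 201 CPM, followed by 44.9 in contractile and 21.5 in osteoblast/osteocyte-like cells, and was 3.88 in macrophage-like, 3.53 in cycling-like and 14.2 in osteoclast-like cells. Cdkn1a was higher in fibroblastic (838 CPM) and osteoblast/osteocyte-like cells (578) than in contractile (296), macrophage-like (249.7), cycling-like (302) and osteoclast-like cells (94.8). Neighbouring classes in these orders overlapped in Cdkn1a, where contractile cultures ran from 147 to 466 CPM and macrophage-like ones from 193 to 325. Ccnd3, a D cyclin widely used by blood cells, had medians of 24.3 to 51.2 CPM over the 6 classes. Cdkn1b had medians of 21.8 to 28.5 CPM in the myeloid classes and 5.34 to 17.3 in the stromal ones. In contractile cells it rested on 19 UMIs and was 0 in 4 of 11 cultures, and the limits that a count of 0 allows there (3 UMIs per culture) reach 8.01 to 39.4 CPM, so that a level like that of the myeloid cells was within this limit in some cultures. Cdkn1c was at a median of 1.76 CPM or less in each of the 6 classes, but at 101 in cluster 2 and 15.9 in cluster 3 of the other myeloid cells.

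**Figure D1:**
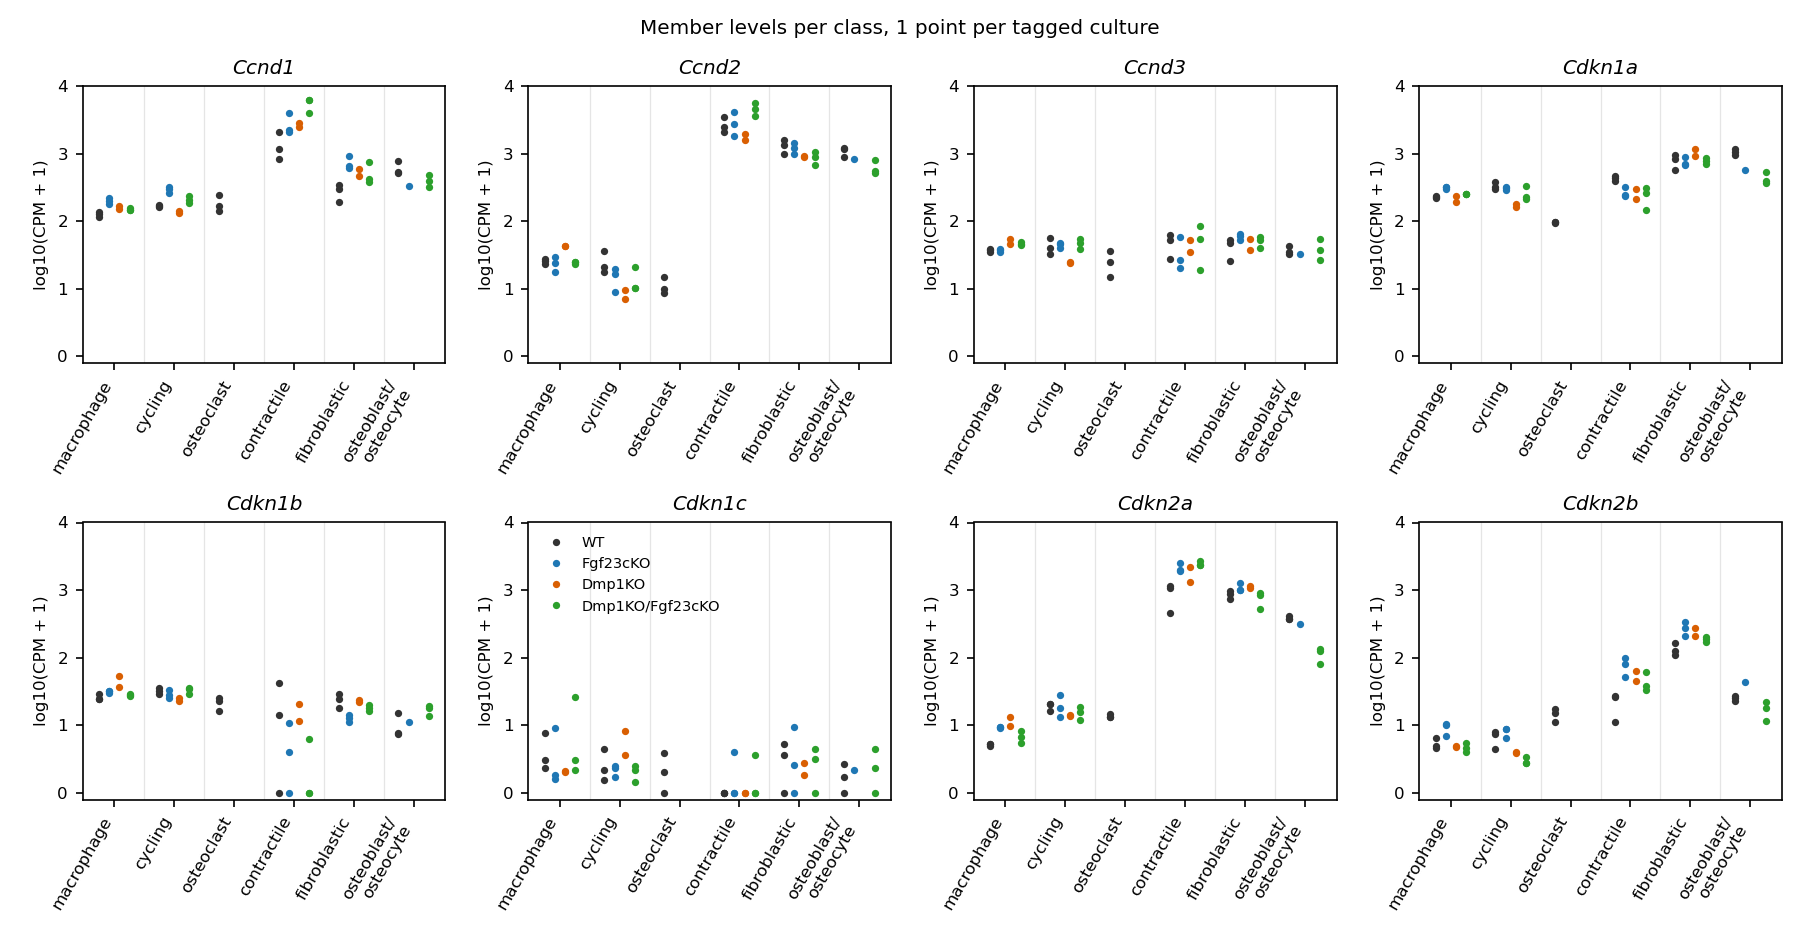
Level of each member in 6 cell classes as log10(CPM + 1), with 1 point for each tagged culture that has at least 10 cells of the class, coloured by genotype. Cdkn2a and Ccnd2 of the 3 stromal classes (contractile, fibroblastic, osteoblast/osteocyte) lie above those of the myeloid classes in every culture, whereas the Ccnd3 medians of the 6 classes lie between 24.3 and 51.2 CPM.

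Across the 54 sums of a class and a culture, Cdkn2a went with Ccnd2 (Pearson r = 0.952), Cdkn2b (0.855) and Ccnd1 (0.847), and Cdkn1b went against Ccnd1 (r = -0.732). These sums share classes and libraries, and the values are a description. Among 10786 genes, those most like Cdkn2a were Mxra7 (0.973), Crip2 (0.971) and Cavin1 (0.969), and those most like Ccnd2 were Ddr2 (0.981), Cald1 (0.977) and Wwtr1 (0.976). Ccnd1 was most like Ptpn11 (0.941), Cdkn1a most like Vasn (0.862), Cdkn1b most like Mtmr12 (0.903) and Cdkn2b most like Rab34 (0.922). Ccnd3 and Cdkn1c had no near companion, with highest values of 0.546 for Fcgrt and 0.521 for Plin3.

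The same cells held the inhibitor and the cyclins. With each cell thinned to 1300 UMIs (668 of 5604 WT, 350 of 2923 Fgf23cKO, 423 of 6439 Dmp1KO and 327 of 2827 Dmp1KO/Fgf23cKO cells were shallower and left out), 180 of 322 contractile cells (55.9%) held UMIs of Cdkn2a, Ccnd1 and Ccnd2 together. This was the case in 56 of 303 fibroblastic cells (18.5%), 19 of 186 osteoblast/osteocyte-like cells (10.2%), 0 of 6069 macrophage-like cells and 0 of 1101 cycling-like cells. By genotype it was 22 of 58 contractile cells in WT (37.9%), 31 of 55 in Fgf23cKO (56.4%), 44 of 90 in Dmp1KO (48.9%) and 83 of 119 in Dmp1KO/Fgf23cKO (69.7%). The contractile cells showed little proliferation mRNA: the marker Mki67 was seen in 1 of 58 WT cells and in 0 of 55, 90 and 119 thinned cells of the other genotypes, against 44.6 to 52.3% of cycling-like cells. A Cdkn2a UMI was found in 55.2% (exact 95% interval 41.5 to 68.3) of thinned contractile cells in WT, 78.2% (65.0 to 88.2) in Fgf23cKO, 67.8% (57.1 to 77.2) in Dmp1KO and 84.0% (76.2 to 90.1) in Dmp1KO/Fgf23cKO. The share in macrophage-like cells was 0.551 to 1.42%. Intervals cover counting error only.

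Contractile cells of the tagged cultures carried more Cdkn2a and Ccnd1 in each knockout genotype than in WT. Of 6 members that could be tested, 3 passed in Dmp1KO, beside 13.3% of all genes tested, 3 in Fgf23cKO (19.0% of all genes) and 4 in Dmp1KO/Fgf23cKO (34.5%), in either direction, and each of these calls was a rise. The members' median log2 fold changes were 0.79, 0.94 and 1.56, beside -0.15, -0.01 and -0.08 over all genes. These comparisons share the WT cultures. The fold changes are relative to the scaling of edgeR (TMM). Without its factors, on the plain UMI totals, the median of all genes moved from -0.15, -0.01 and -0.08 to -0.58, -0.44 and -0.77. There 2, 3 and 3 members were called higher and 0, 1 and 1 lower, beside 827, 1096 and 2282 of all 4905 genes in either direction.

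Cdkn2a was at 1076, 457 and 1152 CPM in the 3 WT cultures, 2003, 2551 and 1910.1 in Fgf23cKO, 1314 and 2181 in Dmp1KO, and 2319.7, 2673 and 2361 in Dmp1KO/Fgf23cKO. Every knockout culture lay above every WT culture. The rise was 3.11-fold in Fgf23cKO (log2 fold change 1.64, SE 0.322, adjusted p = 0.00472), 2.56-fold in Dmp1KO (1.35, SE 0.345, adjusted p = 0.0226) and 4.18-fold in Dmp1KO/Fgf23cKO (2.06, SE 0.323, adjusted p = 0.000337). The mean CPM alone differed 2.41-, 1.95- and 2.74-fold, and without the TMM factors the fitted folds were 2.31, 1.89 and 2.61, all still called. Ccnd1 was at 2086, 823 and 1186 CPM in WT, 2267, 3987 and 2054 in Fgf23cKO, 2872 and 2503 in Dmp1KO, and 6172, 6173 and 4014 in Dmp1KO/Fgf23cKO. The Dmp1KO/Fgf23cKO cultures were the highest of all, and 1 Fgf23cKO culture lay below the highest WT culture. Ccnd1 rose 6.15-fold in Dmp1KO/Fgf23cKO (2.62, SE 0.355, adjusted p = 0.000112), 2.64-fold in Fgf23cKO (adjusted p = 0.0151) and 2.54-fold in Dmp1KO (adjusted p = 0.0339). Without the TMM factors these folds were 3.83, 1.95 and 1.92, again with all 3 called.

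Ccnd2 did not follow in the single knockouts. It was at 3438, 2115 and 2483 CPM in WT, 1807, 4085 and 2732 in Fgf23cKO, 1917 and 1597 in Dmp1KO, and 5696, 4528 and 3592 in Dmp1KO/Fgf23cKO. It rose 2.66-fold in Dmp1KO/Fgf23cKO compared with WT (1.41, SE 0.31, adjusted p = 0.00404) and 3.14-fold compared with Dmp1KO (1.65, SE 0.357, adjusted p = 0.0217), where Ccnd1 also rose 2.42-fold (adjusted p = 0.0923), 2 of 6 members beside 4.51% of all genes. Without the TMM factors Ccnd2 was 1.64-fold and 2.58-fold higher, both called. The rise of Ccnd1 over Dmp1KO lost its call without these factors (1.00 on the log2 scale) and in 6 of 11 leave-outs (1.12 to 1.47), and held only without WT replicate 1 or 2, Fgf23cKO replicate 1 or 2, or Dmp1KO/Fgf23cKO replicate 3. That of Ccnd2 over Dmp1KO was lost without either Dmp1KO culture (1.71 and 1.65). Cdkn2b, the neighbour of Cdkn2a, was at 26.2, 10.2 and 25.4 CPM in WT (2, 1 and 3 UMIs), 80.2, 97.7 and 50.8 in Fgf23cKO, 62.7 and 44.9 in Dmp1KO, and 61.2, 37.4 and 32.2 in Dmp1KO/Fgf23cKO. The WT cultures were the lowest. With so few UMIs in WT the ratio of pooled UMIs to WT was 3.54 (95% counting interval 1.52 to 10.1) in Fgf23cKO, 2.58 (1.07 to 7.51) in Dmp1KO and 2.17 (0.921 to 6.21) in Dmp1KO/Fgf23cKO, and the model's adjusted p-values were 0.0195, 0.0849 and 0.038. Without the TMM factors only that of Fgf23cKO passed (0.0488). Cdkn1a was at 394, 437 and 466 CPM in WT, 232, 244 and 322 in Fgf23cKO, 296 and 210.5 in Dmp1KO, and 306, 256 and 147 in Dmp1KO/Fgf23cKO. All WT cultures lay above all others, but the difference did not pass the test in any genotype (adjusted p = 0.471 to 0.586). Without the TMM factors it passed in Fgf23cKO (-0.76, adjusted p = 0.0882) and Dmp1KO/Fgf23cKO (-0.94, adjusted p = 0.0204). Ccnd3 ran from 17.9 to 82.8 CPM with overlapping groups, and Cdkn1b and Cdkn1c (2 UMIs) could not be tested. The effect of Fgf23cKO differed between the Dmp1 backgrounds for 0 of 6 members by edgeR (3.24% of all genes), with 2 at an unadjusted p under 0.05 and 1, Ccnd2, called by DESeq2.

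These sums hold 17 to 67 cells a culture, and the share of macrophage markers in them varied. Macrophage markers made up 7309, 20058 and 11465 CPM of the contractile sums in WT, 10458, 2590 and 6039 in Fgf23cKO, 12281 and 4984 in Dmp1KO, and 2792, 3207 and 7760 in Dmp1KO/Fgf23cKO, and contractile markers 7452 to 18161, 9450 to 12642, 17240 to 19886 and 19450 to 23597 CPM. Per 1000 CPM of contractile markers, Ccnd1 was 81.6 to 115 in WT, 162 to 333 in Fgf23cKO, 126 to 167 in Dmp1KO and 183 to 317 in Dmp1KO/Fgf23cKO, with WT below all others. Cdkn2a on this scale was 59.2 to 79.3 in WT, 151 to 213 in Fgf23cKO, 76.2 to 109.7 in Dmp1KO and 98.3 to 137 in Dmp1KO/Fgf23cKO, so that Dmp1KO and WT overlapped. Ccnd2 on this scale was 171 to 284 in WT, 191 to 341 in Fgf23cKO, 80.3 to 111 in Dmp1KO and 164 to 241 in Dmp1KO/Fgf23cKO, so the Dmp1KO/Fgf23cKO and WT cultures overlapped. Among contractile cells with under 1% macrophage marker UMIs, 7 of the 12 calls held: Cdkn2a rose by a log2 fold change of 1.00 in Fgf23cKO, 0.97 in Dmp1KO and 1.24 in Dmp1KO/Fgf23cKO, and Ccnd1 by 0.85, 1.26 and 1.85, with Cdkn2b in Fgf23cKO as the seventh, and Dmp1KO/Fgf23cKO did not pass in Ccnd2 (0.61 compared with WT and 0.98 compared with Dmp1KO) or, compared with Dmp1KO, in Ccnd1 (0.59). The WT culture with 20058 CPM of macrophage markers was replicate 2, and without it the calls of Cdkn2b in all 3 genotypes (1.35, 1.77 and 1.26 in Dmp1KO, Fgf23cKO and Dmp1KO/Fgf23cKO) and of Ccnd1 in Dmp1KO (1.04) were lost. Ccnd1 in Dmp1KO was also lost without WT replicate 3 (1.25) or Dmp1KO replicate 3 (1.44). Cdkn2b was lost in 5 of 11 leave-outs in Dmp1KO (1.35 to 1.97), and in Dmp1KO/Fgf23cKO also without replicate 1 of that genotype (1.32). Cdkn2a in Dmp1KO lost its call without replicate 3 of that genotype (0.92), and Cdkn2a lost it in Dmp1KO (0.32) and Fgf23cKO (0.35) in cells thinned to equal depth.

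**Figure D2:**
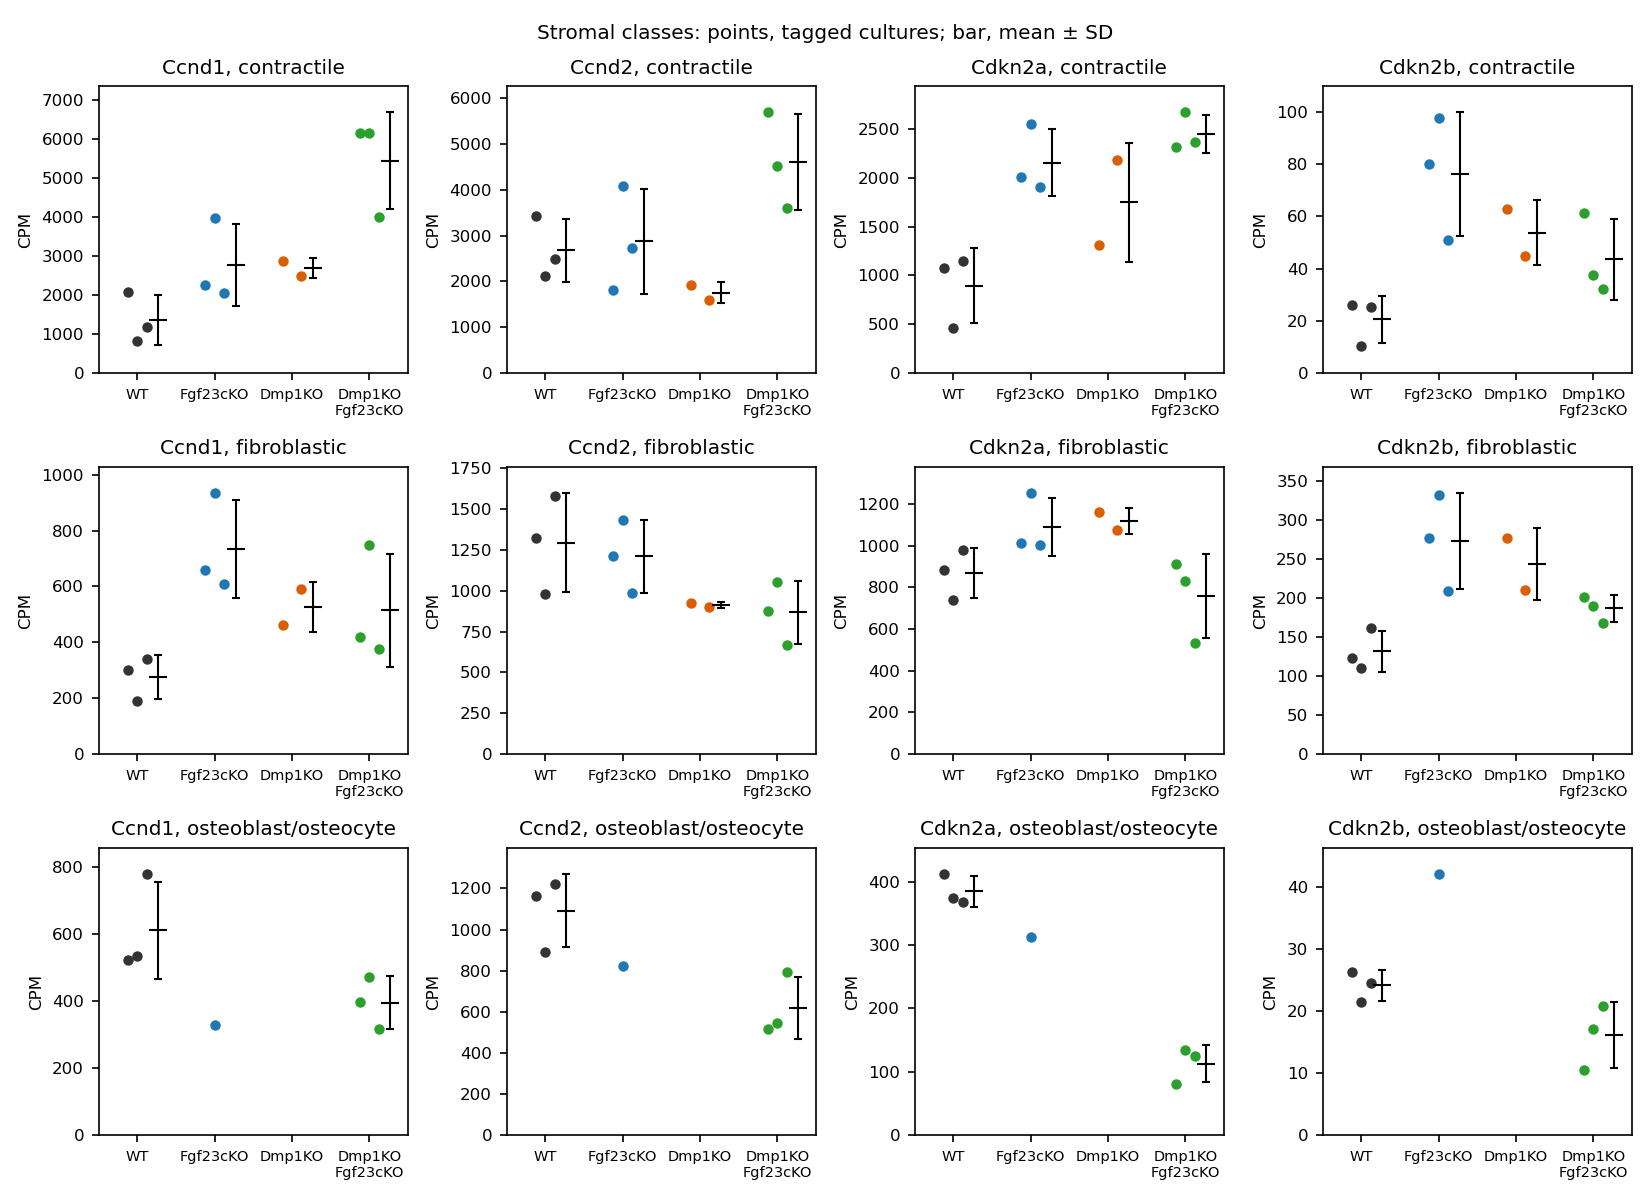
CPM of Ccnd1, Ccnd2, Cdkn2a and Cdkn2b in the contractile (top row), fibroblastic (middle) and osteoblast/osteocyte-like (bottom) class sums, with 1 point per tagged culture and the mean ± SD of a genotype as a bar where at least 2 cultures have 10 cells. In contractile cells the knockout cultures lie above the 3 WT cultures in Cdkn2a (457 to 1152 CPM in WT), while in osteoblast/osteocyte-like cells the Dmp1KO/Fgf23cKO cultures lie below them.

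Fibroblastic stromal cells, which hold more Cdkn2b than the other classes, carried more of it in the single knockouts. Of 7 members tested, 1 passed in Dmp1KO, a rise (11.8% of all genes passed in either direction), 3 passed in Fgf23cKO, 2 rises and 1 fall (11.8%), and 1 passed in Dmp1KO/Fgf23cKO, a rise (15.7%). Cdkn2b was at 123, 110.4 and 161 CPM in WT, 277, 332 and 209 in Fgf23cKO, 276 and 210.3 in Dmp1KO, and 201, 190.1 and 168 in Dmp1KO/Fgf23cKO. The WT cultures lay below all others. It rose 2.09-fold in Fgf23cKO (1.07, SE 0.21, adjusted p = 0.0128) and 1.84-fold in Dmp1KO (0.88, SE 0.229, adjusted p = 0.0364), where the call was lost without WT replicate 1 (0.80) or 2 (0.76) or Dmp1KO replicate 2 (0.68).

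Ccnd1 in these cells was at 302, 189 and 341 CPM in WT, 659, 934 and 611 in Fgf23cKO, 463 and 589.7 in Dmp1KO, and 419.7, 748 and 375 in Dmp1KO/Fgf23cKO. Here too WT was lowest without overlap. The rise passed in Fgf23cKO (2.68-fold, 1.42, SE 0.294, adjusted p = 0.0158) and in Dmp1KO/Fgf23cKO (1.80-fold, adjusted p = 0.0867), where it was lost without WT replicate 1 (0.89) or 2 (0.64), either Dmp1KO culture (0.87 and 0.86) or Dmp1KO/Fgf23cKO replicate 2 (0.48). Cdkn1b fell in Fgf23cKO, from 28.3, 23.7 and 17.3 to 11.7, 10.1 and 13.005 CPM (log2 fold change -0.94, SE 0.24, adjusted p = 0.0384), a call lost without WT replicate 1 (-0.74). Cdkn2a, at 741 to 979.9 CPM in WT, 1005 to 1253 in Fgf23cKO, 1077 and 1165 in Dmp1KO and 532 to 911 in Dmp1KO/Fgf23cKO, passed in none of the comparisons, and neither did Ccnd2 (668 to 1582 CPM) or Cdkn1a (578 to 1155 CPM). Without the TMM factors Ccnd2 passed as lower in Dmp1KO/Fgf23cKO (-0.58, adjusted p = 0.0867) and Ccnd1 as higher in Dmp1KO (0.90, adjusted p = 0.0989), both compared with WT. Between Dmp1KO/Fgf23cKO and Dmp1KO 0 members passed edgeR's test, beside 0.872% of all genes, with 1 (Cdkn2a) at an unadjusted p under 0.05 and 0 called by DESeq2. The effect of Fgf23cKO differed between the Dmp1 backgrounds for 2 members (5.97% of all genes): it was smaller in the knockout background for Cdkn2b by 1.48 on the log2 scale (difference -1.48, adjusted p = 0.0271) and for Ccnd1 by 1.49 (difference -1.49, adjusted p = 0.0838). The call of Cdkn2b was lost without Dmp1KO replicate 2 (-1.28). That of Ccnd1 was lost in 7 of 11 leave-outs (-1.86 to -1.24) and held only without WT replicate 3, Fgf23cKO replicate 1 or 3, or Dmp1KO/Fgf23cKO replicate 2.

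In osteoblast/osteocyte-like cells the direction was the opposite. The class had sums of at least 10 cells in WT and Dmp1KO/Fgf23cKO and in 1 Fgf23cKO culture, so that only Dmp1KO/Fgf23cKO and WT were compared, and 4 of 7 members passed, all of them lower (14.5% of all genes passed in either direction). The members' median log2 fold change was -0.74, beside 0.01 over all genes. Cdkn2a was at 412, 374 and 368 CPM in WT and 79.9, 134 and 125 in Dmp1KO/Fgf23cKO, and at 314 in the Fgf23cKO culture. It fell to 0.276 of the WT level (-1.86, SE 0.196, adjusted p = 0.000584). Cdkn1a was at 1072, 1187 and 941 CPM in WT and 398, 528 and 361 in Dmp1KO/Fgf23cKO (-1.41, SE 0.169, adjusted p = 0.00112). Ccnd2 fell from 1165, 888 and 1222 to 517, 545 and 794 CPM (-0.92, adjusted p = 0.0137), and Ccnd1 from 523, 536 and 780.3 to 397, 473 and 316 CPM (-0.74, adjusted p = 0.0384). The groups of these genes did not overlap, but the genes were picked by their calls and the share of all genes without overlap is not given. Cdkn2b was at 26.4, 21.5 and 24.6 CPM in WT and 10.5, 17.2 and 20.8 in Dmp1KO/Fgf23cKO and did not pass (adjusted p = 0.194). Osteoblast markers made up 127192 to 173121 CPM in WT and 127054 to 131209 in Dmp1KO/Fgf23cKO. The class joined 2 unlike clusters, and the sums give most weight to the deeper cells. Cluster 14 had 371 cells with a median of 1004 UMIs and 23256 CPM of macrophage markers. Cluster 16 had 165 cells with a median of 55569 UMIs and 4111 CPM. The part of their mix in the fall was not tested. Ccnd1 lost its call without WT replicate 3 (-0.52), and Cdkn2a in cells thinned to equal depth (-1.12, adjusted p = 0.105). Whether the fall in this class and the rise in contractile cells differ was not tested.

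In droplets of macrophage-like cells Cdkn2a was found at a small percentage of its contractile level, and 6 genes of the contractile cells were looked at beside it. As a percentage of the contractile level, macrophage-like Cdkn2a was 0.465 in WT, 0.406 in Fgf23cKO, 0.557 in Dmp1KO and 0.240 in Dmp1KO/Fgf23cKO, while the contractile genes Acta2 (0.405, 1.28, 0.467 and 0.593), Tagln (0.163, 0.315, 0.321 and 0.168), Tpm2 (0.296, 0.673, 0.399 and 0.393) and Cald1 (0.263, 0.371, 0.481 and 0.219), with Mgp (0.102, 0.416, 0.283 and 0.155) and Grem1 (0.317, 0.143, 0.583 and 0.247), gave 0.102 to 1.28. In WT Cdkn2a lay above all 6 of these genes, and in the other genotypes it lay among them. Each of these 6 genes also had a higher CPM in macrophage-like droplets of every knockout than in those of WT. Acta2 was at 5.39 in WT and at 13.71, 16.01 and 14.04 in Fgf23cKO, Dmp1KO and Dmp1KO/Fgf23cKO. In the same order, Cald1 was at 5.47, 8.26, 13.08 and 9.64, and Mgp at 2.92, 7.38, 6.99 and 5.66. Pooled Cdkn2a was at 4.18, 8.34, 9.99 and 5.92. The part of free stromal RNA in the macrophage-like Cdkn2a, and in its changes between genotypes, was not tested. Ccnd2 stood at 0.504 to 2.39% of the contractile level, Ccnd1 at 2.65 to 9.73%, Cdkn2b at 7.23 to 19.99% and Cdkn1a at 51.5 to 119%.

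Ccnd1 and Cdkn1a had the highest macrophage-like levels and both rose in Fgf23cKO, whose macrophage-like cells lay mostly in another cluster than those of WT. Of 8 members, 5 passed in Dmp1KO (51.4% of all genes passed in either direction), 4 in Fgf23cKO (48.8%) and 4 in Dmp1KO/Fgf23cKO (59.4%), each as a rise. Without the TMM factors 5, 5 and 5 passed, beside 6497, 6227 and 7595 of all 12532 genes. With about 1 in 2 genes called in these comparisons, the counts are near the background. Ccnd1 was at 128, 135 and 116 CPM in WT, 197, 222 and 178 in Fgf23cKO, 153 and 165 in Dmp1KO, and 146, 144 and 158 in Dmp1KO/Fgf23cKO. WT was lowest and Fgf23cKO highest, with no overlap between them (1.54-fold, 0.63, SE 0.0727, adjusted p = 7.75e-07). Cdkn1a was at 238, 220.2 and 224 CPM in WT, 325, 323 and 294 in Fgf23cKO, 235 and 193 in Dmp1KO, and 249.7, 250.4 and 256 in Dmp1KO/Fgf23cKO. Its rise in Fgf23cKO was 1.35-fold (SE 0.0579 on the log2 scale, adjusted p = 4.43e-06). Cdkn2a, at 4.24, 3.97 and 4.37 CPM in WT, was 8.56, 8.32 and 8.13 in Fgf23cKO (1.94-fold, adjusted p = 0.000661), 12.3 and 8.63 in Dmp1KO (2.37-fold, adjusted p = 0.000139) and 7.21, 4.48 and 5.78 in Dmp1KO/Fgf23cKO (1.35-fold, adjusted p = 0.0635, lost without Dmp1KO/Fgf23cKO replicate 1 at 0.22 and without WT replicate 1 or 2 at 0.44 and 0.39). Cdkn2b rose in Fgf23cKO, from 5.53, 3.88 and 3.56 to 9.17, 9.36 and 5.99 CPM (1.94-fold, adjusted p = 0.00103), and at 3.74 and 3.86 CPM in Dmp1KO and 4.43, 3.60 and 3.03 in Dmp1KO/Fgf23cKO did not pass there.

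The direction of the 3 D cyclins in Dmp1KO, and the call of p27, depended on which myeloid cells were counted. In the macrophage-like class, Ccnd2 was at 22.0, 24.7 and 26.4 CPM in WT, 41.4 and 41.7 in Dmp1KO, 23.2, 28.2 and 16.7 in Fgf23cKO and 23.7, 24.2 and 22.4 in Dmp1KO/Fgf23cKO. Most Dmp1KO cells of this class lay in another cluster than those of WT. In Ccnd2, Dmp1KO stood alone above the rest (1.65-fold compared with WT, SE 0.135 on the log2 scale, adjusted p = 0.000189). Cdkn1b rose there as well, from 23.2, 28.5 and 23.3 to 52.4 and 35.7 CPM (1.64-fold, adjusted p = 9.9e-05), Ccnd3 from 36.2, 34.5 and 38.1 to 53.04 and 45.5 (1.31-fold, adjusted p = 0.00102) and Ccnd1 1.24-fold (adjusted p = 0.00543, lost without Dmp1KO replicate 3 at 0.25). Compared with Dmp1KO, the Dmp1KO/Fgf23cKO cells had less Ccnd2 (0.558-fold, adjusted p = 5.41e-05), Cdkn1b (0.630-fold, adjusted p = 0.000289) and Cdkn2a (0.571-fold, adjusted p = 0.00614) and more Cdkn1a (1.17-fold, adjusted p = 0.0194), 4 of 8 members beside 24.4% of all genes. Here Cdkn2a was lost without Dmp1KO replicate 2 (-0.58) and Cdkn1a without Dmp1KO replicate 3 (0.087).

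Different clusters held the noncycling myeloid cells of the genotypes. In WT, 84.8% of them were in cluster 1 (led by Marco and Maf) and 11.7% in cluster 12 (Slc7a11 and Procr), while in Fgf23cKO and Dmp1KO/Fgf23cKO 63.7% and 83.5% were in cluster 0 (F13a1, Pstpip2 and Cd86). In Dmp1KO, 16.4% were in cluster 0 and the rest were mostly in clusters 3 (Itgax, Mfge8 and Mmp12, 25.3%), 5 (Fgf13 and Pcp4l1, 21.5%), 2 (Tmem267, Cdkn1c and Ddit3, 18.5%) and 6 (Cd74 and H2-Aa, 17.6%), which are not in the macrophage-like class. Ccnd2 had a median of 28.7 CPM in cluster 0 and 26.4 in cluster 1, but 11.98 in cluster 12, 6.46 in cluster 5, 5.64 in cluster 6, 5.03 in cluster 2 and 3.19 in cluster 3. Ccnd1 had 160.5, 146, 17.9, 188, 64.9, 34.1 and 54.4 CPM in these clusters in the same order. Over all noncycling myeloid cells Ccnd2 was 21.4, 24.5 and 26.1 CPM in WT and 7.53 and 11.1 in Dmp1KO, a fall (log2 fold change -1.16, adjusted p = 0.0008). Ccnd1 in these cells was at 127, 134 and 116 CPM in WT and 75.1 and 79.6 in Dmp1KO (-0.46, adjusted p = 0.00222), and Ccnd3 at 36.2, 34.4 and 38.4 and at 26.5 and 28.4 (-0.17, adjusted p = 0.0607). Cdkn1b was at 23.4, 28.4 and 23.2 CPM in WT and 23.3 and 22.2 in Dmp1KO and did not pass (0.09, adjusted p = 0.403). In this grouping 5 members passed in Dmp1KO, 1 higher and 4 lower (70.2% of all genes passed), 6 in Fgf23cKO, 5 higher and 1 lower (50.0%), and 2 in Dmp1KO/Fgf23cKO, both higher (55.3%). Between Dmp1KO/Fgf23cKO and Dmp1KO 6 passed, 4 higher and 2 lower (67.9%). Cdkn2a kept its direction, with 4.33, 3.90 and 4.26 CPM in WT and 6.42 and 6.76 in Dmp1KO (0.91, adjusted p = 0.000113). Cluster 0 held only 50 tagged WT cells but 740 of Dmp1KO, while cluster 1 held 2830 of WT and 10 of Dmp1KO. Whether the macrophage-like rises of Ccnd2, Ccnd3 and Cdkn1b in Dmp1KO hold within cluster 0 was not tested. Within it Cdkn1a was at 94.8, 334 and 281 CPM in WT and 316, 322 and 292 in Fgf23cKO. Ccnd1 there was at 190, 159 and 115 CPM in WT and 215, 230 and 194 in Fgf23cKO. For each member and knockout, a change within cells and a change in the clusters that a genotype's cells fall into cannot be told apart. The same limit holds for the differences of the Fgf23cKO effect.

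**Figure D3:**
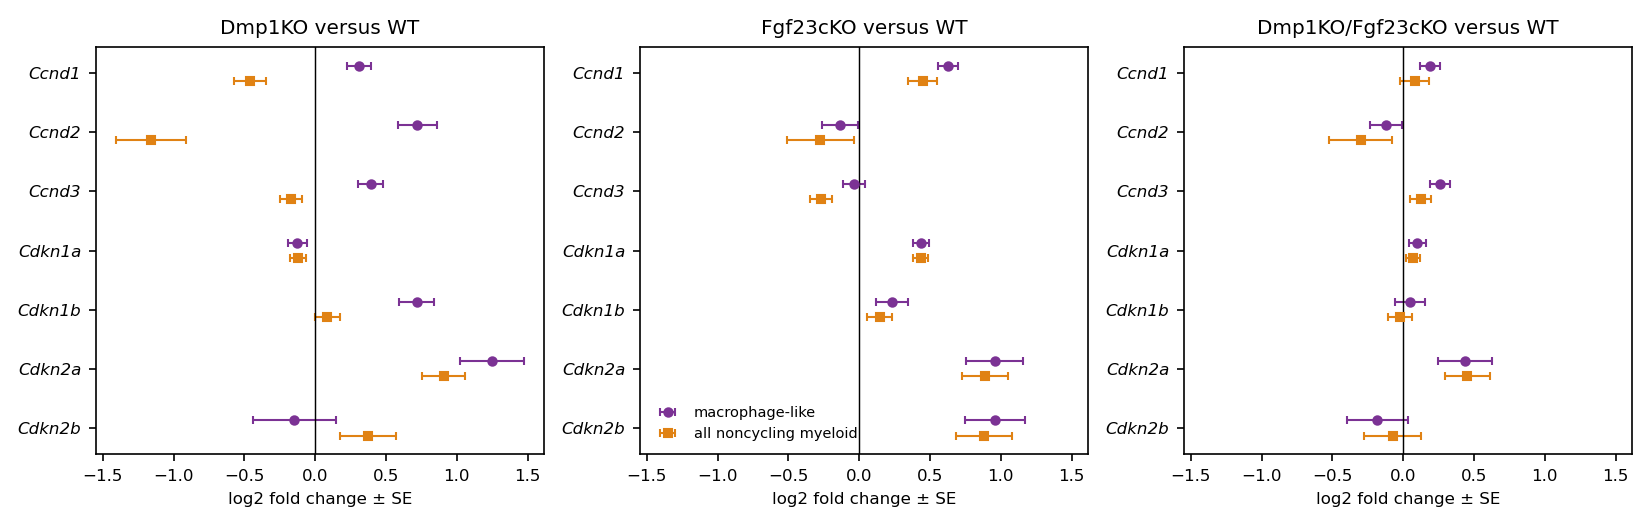
Log2 fold change (± SE) of 7 members compared with WT in Dmp1KO (left), Fgf23cKO (middle) and Dmp1KO/Fgf23cKO (right), in the macrophage-like class (purple circles) and in all noncycling myeloid cells (orange squares), with 0 as a vertical line. In Dmp1KO the 3 D cyclins lie on opposite sides of 0 in the 2 groupings (Ccnd2 at 0.72 and -1.16), while in Fgf23cKO each of the 7 members shown keeps its side. Cdkn1c is not plotted.

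The effect of Fgf23cKO in macrophage-like cells differed between the Dmp1 backgrounds for 6 of 8 members, beside 37.1% of all genes. All 6 differences were negative, that is, Fgf23cKO raised the member less, or lowered it more, in Dmp1-/- than in Dmp1+/+ cells: -1.77 for Cdkn2a (adjusted p = 6.98e-05), -0.99 for Cdkn2b (adjusted p = 0.0394), -0.90 for Cdkn1b (adjusted p = 0.000251), -0.75 for Ccnd1 (adjusted p = 2.37e-05), -0.70 for Ccnd2 (adjusted p = 0.00505) and -0.21 for Cdkn1a (adjusted p = 0.0819). The difference of Cdkn1a lost its call in 7 of 11 leave-outs (-0.35 to -0.080) and held only without WT replicate 1 or replicate 3 of any other genotype, and that of Cdkn2b was lost without Dmp1KO replicate 3 (-0.96). Over all noncycling myeloid cells, where 63.2% of all genes passed, the difference of Ccnd2 was 1.13 and that of Ccnd1 0.094.

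Cycling-like cells showed the D cyclins in another proportion than macrophage-like cells of the same cultures. Ccnd1 was higher in cycling-like cells in 9 of 11 cultures (median ratio 1.305, range 0.852 to 1.79), and both exceptions were the Dmp1KO cultures. Against all noncycling myeloid cells of the same culture, Ccnd1 was higher in 11 of 11 (median ratio 1.54, 1.28 to 2.32), the Dmp1KO cultures included. Ccnd2 was lower in 9 of 11 (median ratio 0.546, 0.147 to 1.33, and 0.781, 0.291 to 1.72, against all noncycling myeloid cells), and Ccnd3 was higher in 6 and lower in 5. Cdkn2a was higher in 11 of 11 cultures (median ratio 2.43, 1.05 to 4.57), and the contractile markers together had a median ratio of 1.32 (1.08 to 1.90). In WT macrophage-like cells the marker sum was at 104, 108 and 94.99 CPM. The 6 contractile genes looked at above were each at 0.759 to 5.47 CPM there. The sum thus rested largely on other genes, and its ratio does not measure free stromal RNA. The part of such RNA in the cycling-like Cdkn2a was not tested. Among thinned cells a Cdkn2a UMI was seen in 0.758 to 1.63% of cycling-like cells, against the 0.551 to 1.42% of macrophage-like cells. Cdkn1a (higher in 5, lower in 6) and Cdkn1b (higher in 6, lower in 5) had no common direction, and Cdkn2b was lower in 9. These ratios are a description, since the classes were formed from the same cells. Within the cycling cells, Ccnd1 (medians 221 and 143 CPM), Ccnd3 (44.9 and 29.2) and Cdkn1a (306 and 205) were higher in the S-phase than in the G2 and mitotic cluster in 10 of 11 cultures each, and Cdkn1b was lower in 8 (27.3 and 31.5).

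**Figure D4:**
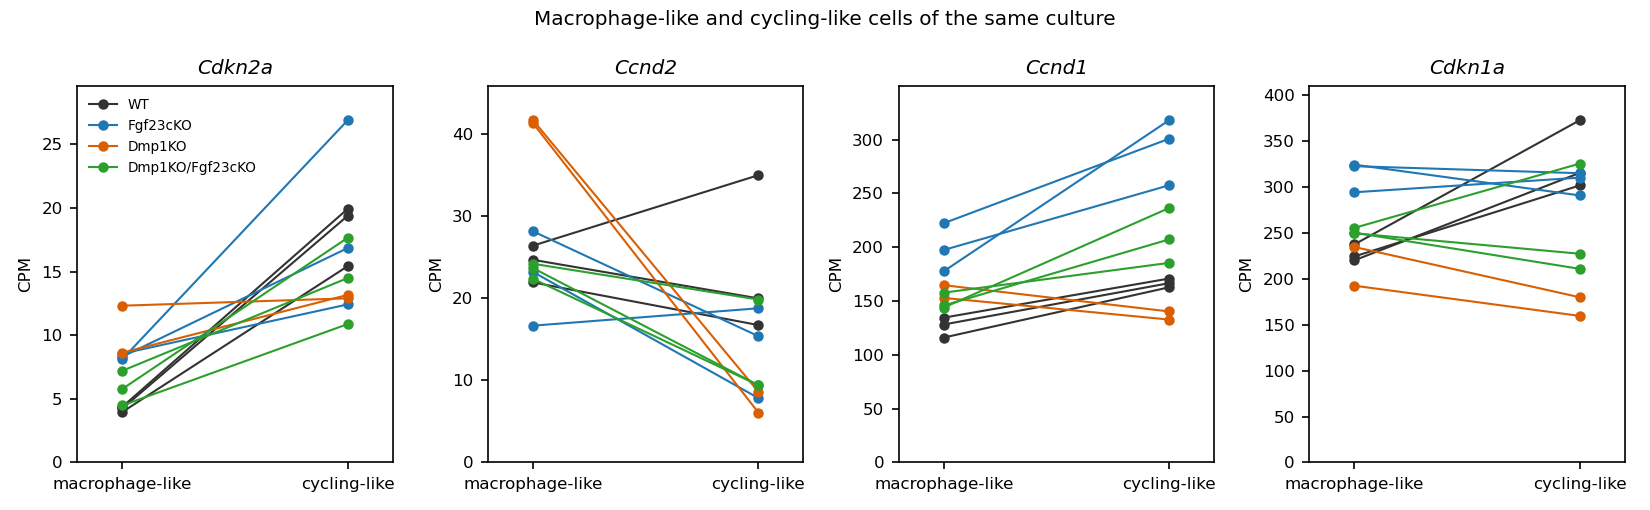
CPM of Cdkn2a, Ccnd2, Ccnd1 and Cdkn1a in macrophage-like (left) and cycling-like (right) cells, with a line joining the 2 values of each of 11 tagged cultures, coloured by genotype. Cdkn2a lines go up in all 11 cultures and Ccnd2 lines go down in 9, and the Ccnd1 lines go down only in the 2 Dmp1KO cultures, where Ccnd1 was higher in cycling-like cells when compared with all noncycling myeloid cells.

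Between genotypes, cycling cells had less Ccnd2 in each knockout than in WT and more Ccnd1 in Fgf23cKO and Dmp1KO/Fgf23cKO. Of 7 members tested, 3 passed in Dmp1KO, all lower (50.6% of all genes passed), 2 in Fgf23cKO, 1 higher and 1 lower (25.9%), and 4 in Dmp1KO/Fgf23cKO, 1 higher and 3 lower (33.4%). Without the TMM factors the median of all genes in Dmp1KO moved from -0.01 to -0.25. There 6 members passed as lower, Ccnd1 (-0.29), Cdkn1b (-0.45) and Cdkn2b (-0.99) in addition, beside 6146 of all 10875 genes in either direction. In Fgf23cKO and Dmp1KO/Fgf23cKO the counts stayed at 2 and 4, beside 2829 and 3729 genes. Ccnd2 was at 16.8, 20.01 and 35.0 CPM in WT, 7.85, 15.4 and 18.8 in Fgf23cKO, 6.08 and 8.62 in Dmp1KO, and 9.41, 19.9 and 9.42 in Dmp1KO/Fgf23cKO. Only Dmp1KO did not overlap with WT, and there it fell to 0.345 of the WT level (-1.53, SE 0.343, adjusted p = 0.00137). The fall in Fgf23cKO (-0.84, adjusted p = 0.0865) and in Dmp1KO/Fgf23cKO (-1.03, adjusted p = 0.0346) was lost without WT replicate 3 (-0.44 and -0.62). The call in Fgf23cKO was also lost without Fgf23cKO replicate 1 (-0.55) or 2 (-0.92) or Dmp1KO replicate 3 (-0.83), and that in Dmp1KO/Fgf23cKO without replicate 1 of that genotype (-0.77). Ccnd1 was at 167, 171 and 163 CPM in WT, 258, 301 and 318 in Fgf23cKO, 133 and 140.3 in Dmp1KO, and 207, 236 and 186 in Dmp1KO/Fgf23cKO. It rose 1.74-fold in Fgf23cKO (0.80, SE 0.1, adjusted p = 1.84e-05) and 1.22-fold in Dmp1KO/Fgf23cKO (adjusted p = 0.0503), where the call was lost without WT replicate 1 (0.28) or 3 (0.26) or Dmp1KO/Fgf23cKO replicate 2 (0.20) and the G2 and mitotic cluster alone gave -0.11.

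The p21 gene fell in cycling cells of Dmp1KO, and in those of Dmp1KO/Fgf23cKO with a call that single cultures could end. Cdkn1a was at 373, 316 and 302 CPM in WT, 291, 315 and 310.4 in Fgf23cKO, 180.0 and 159.7 in Dmp1KO, and 227, 211 and 326 in Dmp1KO/Fgf23cKO. Dmp1KO was lowest, at 0.611 of WT (-0.71, SE 0.143, adjusted p = 0.00055), and Dmp1KO/Fgf23cKO fell to 0.743 of WT (adjusted p = 0.0217) with 1 culture among the WT values. The latter call was lost without WT replicate 1 (-0.34) or Dmp1KO/Fgf23cKO replicate 1 (-0.35) or 2 (-0.31). Ccnd3 fell in Dmp1KO, from 39.7, 55.5 and 31.8 to 23.9 and 23.3 CPM (-0.61, adjusted p = 0.0105, lost without WT replicate 2 at -0.36). The mix of phases differed: with untagged cells, the S-phase and the G2 and mitotic cluster held 233 and 127 WT cells. They held 257 and 280 Dmp1KO cells. Mean Cdkn1a was 366 CPM in WT and 226 in Dmp1KO in the S-phase cluster, and 251 and 97.9 in the other. Mean Ccnd3 was 47.6 and 25.6 CPM in the S-phase cluster, and 30.7 and 21.1 in the other. Compared with Dmp1KO, Dmp1KO/Fgf23cKO cells had 1.62-fold more Ccnd3 (52.9, 46.4 and 37.7 CPM, adjusted p = 0.00217) and 1.26-fold more Ccnd1 (adjusted p = 0.0176), 2 of 7 members beside 45.2% of all genes. Without the TMM factors 5 of 7 passed, beside 5682 of all 10875 genes. Cdkn2b fell in Dmp1KO/Fgf23cKO, from 3.53, 6.86 and 6.47 to 1.78, 2.36 and 1.77 CPM (0.324-fold, adjusted p = 0.00934). The effect of Fgf23cKO differed between the Dmp1 backgrounds for 3 members (38.4% of all genes): by 1.34 for Ccnd2 (adjusted p = 0.0437), -0.47 for Ccnd1 (adjusted p = 0.0188) and 0.67 for Ccnd3 (adjusted p = 0.0389). That of Ccnd2 was lost without WT replicate 3 (0.94), Dmp1KO replicate 2 (1.13) or Dmp1KO/Fgf23cKO replicate 2 (0.94), that of Ccnd1 without Dmp1KO replicate 3 (-0.40) or without the TMM factors (-0.18), and that of Ccnd3 without WT replicate 2 (0.44) or Dmp1KO/Fgf23cKO replicate 1 (0.53).

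Cdkn1c, the imprinted gene of p57, was a gene of few cells. Its 4715 UMIs came from 699 of 17793 cells (3.93%), and 54 cells with at least 10 UMIs each held 3609 of them (76.5%). The 10 highest cells held 53.5% of the UMIs, against 1.18 to 11.7% for the other 7 members. Of the 54 cells, 49 were in myeloid clusters 2, 3 and 12, which held 85.1% of all Cdkn1c UMIs, and Cdkn1c was among the leading genes of clusters 2 and 12. In cluster 2 a UMI was found in 1 of 7, 1 of 8 and 2 of 10 WT cells, 8 of 50, 5 of 33 and 20 of 119 Fgf23cKO cells, 45 of 439 and 36 of 395 Dmp1KO cells, and 8 of 52, 6 of 51 and 1 of 37 Dmp1KO/Fgf23cKO cells. The single highest cell, in Fgf23cKO replicate 2, held 941 Cdkn1c UMIs among 149359, 97.6% of the gene's UMIs in that culture's cluster 2. Over all noncycling myeloid cells Cdkn1c was at 6.85, 5.40 and 3.87 CPM in WT and 43.7, 89.5 and 22.4 in Fgf23cKO. It was at 6.60 and 9.52 CPM in Dmp1KO and 30.6, 21.2 and 1.97 in Dmp1KO/Fgf23cKO. A sum could turn on 1 cell: macrophage-like Cdkn1c was at 24.8, 1.22 and 2.02 CPM in Dmp1KO/Fgf23cKO and 6.64, 2.07 and 1.32 in WT, passed the test (1.81, SE 0.873, adjusted p = 0.0882), and turned to -0.94 without replicate 1, in which 1 cell held 501 UMIs. The call was also lost without WT replicate 2 (1.57) or 3 (1.41) or either Dmp1KO culture (1.82 each).

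**Figure D5:**
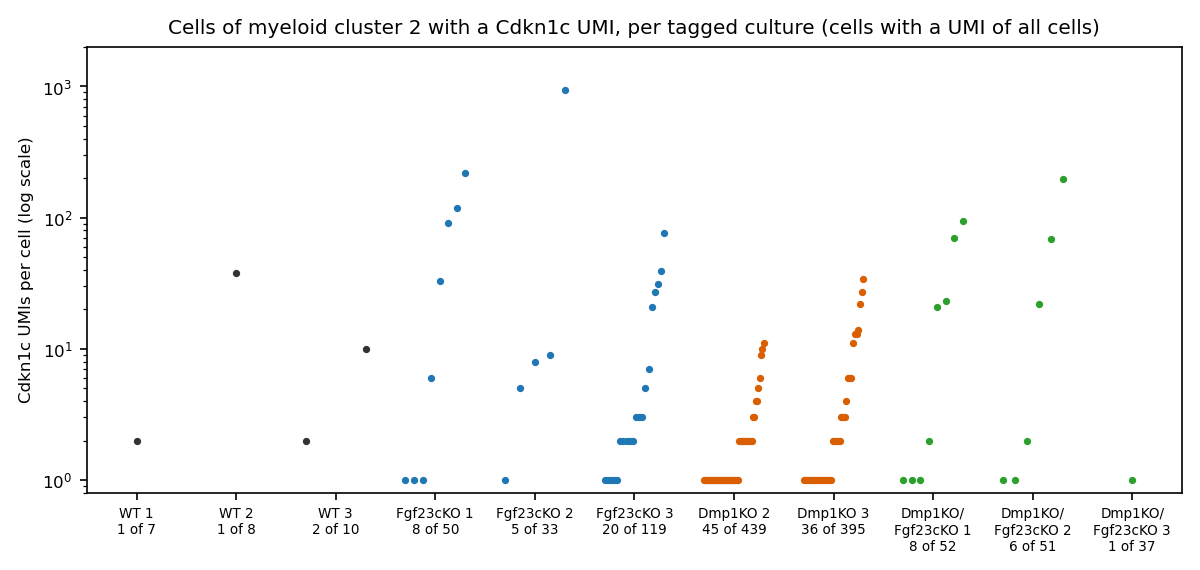
Cdkn1c UMIs per cell (log scale) of the cells of myeloid cluster 2 with at least 1 UMI, by tagged culture, with the number of such cells and of all cluster 2 cells under each name. Most of these cells hold 1 to 3 UMIs, and single cells reach 941 in Fgf23cKO replicate 2.

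Osteoclast-like cells, which form from the same myeloid cells by fusion, reached the minimum of 10 cells a culture in WT alone, with 56 to 78 cells, and were not compared. There Ccnd1 was at 169, 245 and 142 CPM and Cdkn1a at 93.9, 96.2 and 94.8, with hardly any spread. Cdkn2b, at 16.3, 10.1 and 14.2 CPM, lay above the 3.56 to 5.53 of WT macrophage-like cells, and Ccnd2, at 8.76, 14.2 and 7.58, below their 22.0 to 26.4. Among the unnamed clusters, Cdkn2a reached 729 CPM in cluster 17 and 304 in cluster 18.

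The other genes of the pathway, a list of 64 (CDKs, other cyclins and inhibitors, pocket proteins and E2F factors, replication genes, p53 and its targets, growth factor and TGF-beta inputs, regulators of p27 turnover and repressors of the Ink4 locus), held called genes in both directions. In contractile cells 18 of them could be tested: 3 rose and 2 fell in Dmp1KO, 3 and 3 in Fgf23cKO, and 3 and 4 in Dmp1KO/Fgf23cKO, beside 13.3%, 19.0% and 34.5% of all genes called in either direction, with medians of 0.15, -0.08 and -0.72 beside -0.15, -0.01 and -0.08 over all genes. Ccng1, a p53 target, rose in all 3, from 244 ± 45.5 CPM (SD, n = 3) in WT to 601 ± 90.2 in Fgf23cKO (n = 3, adjusted p = 0.00065), 561 ± 15.2 in Dmp1KO (n = 2, adjusted p = 0.00183) and 1090 ± 151 in Dmp1KO/Fgf23cKO (n = 3, adjusted p = 9.01e-06), whereas Cdkn1a, another p53 target, was not called. Egr1, an early growth factor response gene, fell in all 3 (-4.28 in Dmp1KO, -2.03 in Fgf23cKO and -2.67 in Dmp1KO/Fgf23cKO) on 3 to 41 UMIs a genotype. In fibroblastic cells 60 were tested and 7 rose and 4 fell in Dmp1KO, 6 and 3 in Fgf23cKO and 5 and 4 in Dmp1KO/Fgf23cKO (11.8%, 11.8% and 15.7% of all genes). Cdk6, a partner of the D cyclins, rose there in Dmp1KO (1.07, adjusted p = 0.00572) and in Dmp1KO/Fgf23cKO (0.76), with means of 52.99 CPM in WT, 99.5 in Fgf23cKO, 104 in Dmp1KO and 85.8 in Dmp1KO/Fgf23cKO. In Fgf23cKO 2 of 9 genes of replication and mitosis fell, Mki67 (-3.46) and Top2a (-2.65), 0 rose, and the rest were not called.

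In cycling cells of Dmp1KO, 9 of 62 genes of the list rose and 25 fell, with a median of -0.21 beside -0.01 over all genes. The number called, 34 of 62, stood beside 50.6% of all genes, so that the count itself was near the background. By role, 0 of 12 E2F and pocket protein genes rose and 6 fell, 0 of 7 growth factor inputs rose and 4 fell, 1 of 9 replication genes rose and 4 fell, 0 of 5 repressors of the Ink4 locus rose and 2 fell, 0 of 5 other cyclins rose and 2 fell, and 0 of 6 genes of p27 turnover rose and 1 fell. Of p53 and its targets 4 of 11 rose and 4 fell, and of the CDKs 2 of 4 rose and 1 fell, as did 2 and 1 of 3 other inhibitors. No role was tested against the other genes. The sums pool S-phase with G2 and mitotic cells, whose proportion differed between WT and Dmp1KO. Egr1 (-2.17, adjusted p = 2.19e-08) and Ccne2, the cyclin that follows the D cyclins (-1.76, adjusted p = 1.45e-07), were among those that fell. Compared with Dmp1KO, Dmp1KO/Fgf23cKO cycling cells had 21 higher and 14 lower, with a median of 0.15 beside -0.04 (45.2% of all genes called). In macrophage-like cells 61 were tested, 14 rose and 17 fell in Dmp1KO, 15 and 13 in Fgf23cKO and 19 and 21 in Dmp1KO/Fgf23cKO (51.4%, 48.8% and 59.4% of all genes), and Ccne2 fell in all 3 (-2.31, -1.76 and -2.38). In osteoblast/osteocyte-like cells 3 of 47 rose and 1 fell (14.5% of all genes called). Of 11 genes of p53 and its targets tested there, 1 rose and 1, Trp53inp1, fell (-1.30, adjusted p = 0.0195).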

How the data were processed

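Single-cell RNA-Seq of 16 samples was deposited, and 15 were analysed (counts of Dmp1KO replicate 1 were not used here). The authors sorted live cells, made 10x 3′ libraries with CellPlex tags in 1 reaction per genotype, aligned to mm10 and counted UMIs with Cell Ranger 7.0.1, and took out droplets with more than 1 tag. The deposited files hold raw UMI counts for 32285 genes and 12 tags. The 3216 cells of the samples with number 4 were taken as untagged cells of each reaction and entered the clustering, not the tests. No doublets were called here, and multiplets within a culture remain. Cells were clustered with Seurat 5.3.0 and sctransform 0.4.2 in R 4.3.3 (3000 variable genes, of which 7 are members and were taken out), and clusters were named X-like from marker lists, with at least 3 markers among their 10 leading genes for stromal, osteoclast and cycling classes. The classes differ from those of the study, whose annotation was not used here. Other clusters with at least 25000 CPM of macrophage markers and 0.333 of their samples' median depth were macrophage-like, or other myeloid where markers of another list led. A single leading gene of another list could decide this, and the name does not mean fewer macrophage markers. These were at 48655, 46873, 35547 and 63392 CPM in macrophage-like clusters 0, 1, 12 and 19. In other myeloid clusters 2, 3, 5 and 6 they were at 36564, 30538, 41103 and 54986 CPM.

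Counts of at least 10 cells were summed per tagged culture and class and tested with edgeR 4.0.16 (quasi-likelihood, TMM scaling, its filter on low counts, Benjamini-Hochberg adjustment over all genes, adjusted p under 0.1), with all genotypes of at least 2 sums in 1 fit. The 4 comparisons were each knockout with WT, and Dmp1KO/Fgf23cKO with Dmp1KO, and the interaction gave the difference of the Fgf23cKO effect. The named genes were the 8 members, 3 genes with the highest correlation to each, and the 4 pathway genes with the largest called change per comparison. The members and lists were chosen with earlier results of these data known. Annotation was GENCODE M21. In 1 simulated data set per class, genes with a mean of at least 10 counts per sum were changed in Dmp1KO/Fgf23cKO and compared with WT. The spread was taken from the trend over genes. Of 99 genes changed by 1 on the log2 scale among 12223 macrophage-like genes, 97.0% were recovered. Of 100 such genes among 4088 contractile genes, 25% were recovered (84% of 100 at a change of 2). These shares do not describe members with fewer counts or a larger spread. Depth per culture and limits for a count of 0 (3 UMIs) are given with the results.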

Additional observations from a re-analysis of the deposited data

Results flagged for a closer look

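The effect of Fgf23cKO, on the log2 scale, was compared between Dmp1-/- and Dmp1+/+ cultures by edgeR's interaction term, and it differed for 11 combinations of a member and a class. In macrophage-like cells the differences were -1.77 for Cdkn2a, -0.99 for Cdkn2b, -0.70 for Ccnd2, -0.90 for Cdkn1b, -0.75 for Ccnd1 and -0.21 for Cdkn1a (37.1% of all genes passed). The part of free stromal RNA in the macrophage-like difference of Cdkn2a was not tested. In cycling-like cells the differences were 1.34 for Ccnd2, -0.47 for Ccnd1 and 0.67 for Ccnd3 (38.4%). In fibroblastic cells they were -1.48 for Cdkn2b and -1.49 for Ccnd1 (5.97%). Of these calls, those of macrophage-like Cdkn1a and fibroblastic Ccnd1 were each lost in 7 of 11 leave-outs, cycling-like Ccnd2 in 3, cycling-like Ccnd3 in 2, and cycling-like Ccnd1, macrophage-like Cdkn2b and fibroblastic Cdkn2b in 1.

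Outside the tagged cultures, Cdkn1c reached 247 CPM in contractile cells of the untagged Fgf23cKO sample, where 1 cell held 153 of its UMIs, while the tagged contractile cells of all 11 cultures together held 2 Cdkn1c UMIs. In the untagged contractile cells (46 in WT, 111 in Fgf23cKO, 143 in Dmp1KO and 43 in Dmp1KO/Fgf23cKO), Cdkn2a was at 1438, 1626, 1410.2 and 2388 CPM and Ccnd1 at 1532, 2197, 1808 and 4151 CPM. Untagged Dmp1KO cells thus had no more Cdkn2a than untagged WT cells, unlike the tagged cultures.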

How the results depend on the processing

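Of 49 calls over the 4 comparisons, macrophage-like cells had 17, cycling-like 11, contractile 12, fibroblastic 5 and osteoblast/osteocyte-like cells 4, and 11 differences of the Fgf23cKO effect were called. Leaving out a culture gave 15 to 20, 8 to 13, 7 to 13 (7 without Dmp1KO replicate 3), 2 to 7 (2 without WT replicate 1, 3 without Dmp1KO replicate 2) and 3 to 4 calls, and 7 to 14 differences (7 without Dmp1KO replicate 2), with the lone Dmp1KO culture then assumed to vary like the others. Cells thinned to 1300 UMIs, with fewer counts, gave 4, 3, 3, 1 and 2 calls and 4 differences. The G2 and mitotic cluster alone gave 3 calls, contractile cells at resolution 1.2 gave 5 and those under 1% macrophage markers 7. Without TMM factors cycling-like cells gave 17 calls and the others 19, 11, 7 and 4, with 12 differences. The last 2 settings were chosen after seeing the data. Fibroblastic cells had 12 without the filter on low counts, 9 with untagged samples and 3 with sums of at least 20 cells. The cause was not tested. The counts in these other settings are given without the share of all genes called in the same setting.

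Over the 60 called tests and their alternatives, 1314 of 1507 values kept direction and call, 180 lost the call and 13 reversed. The reversals in macrophage-like cells at resolution 0.4 were Ccnd2 (-0.44) and Ccnd1 (-0.47) in Dmp1KO compared with WT, Ccnd2 in Dmp1KO/Fgf23cKO compared with Dmp1KO (0.14) and its difference (0.56). With all noncycling myeloid clusters these were -1.16, -0.46, 0.86 and 1.13, with Ccnd3 (-0.17) and the difference of Ccnd1 (0.094). The others were Cdkn1c in Dmp1KO/Fgf23cKO compared with WT without Dmp1KO/Fgf23cKO replicate 1 (-0.94, and up to 2.51 without another culture), Ccnd1 of G2 and mitotic cells (-0.11), and the difference of Ccnd1 in thinned cycling cells (0.67). Same-numbered cultures did not deviate together in macrophage-like cells (correlations of -0.060 to 0.024 over 15 pairs). In fibroblastic cells the 15 pairs ran from -0.088 to 0.107, with 1 over 0.1, as for 1 of 30 pairs of different numbers. Such values cannot exclude a pairing of the cultures. With the replicate block the calls were 16, 12, 11, 4 and 4 and the differences 10. DESeq2 gave 15, 10, 10, 7 and 4 and 12 differences. The share of all genes called with the block or by DESeq2 is not given either. Osteoclast-like cells and the single knockouts in osteoblast/osteocyte-like cells had too few cells to compare.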
